A study of Mus musculus with 15 samples.

Results

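The 9 genes of connective tissue matrix followed here across kidney samples were Dcn, Lum, Fbln1, Fbln5, Mfap2, Postn, Dpt, Apod and Gsn. Each gene was read from the probe sets whose only platform symbol was that gene. All 9 had exactly 1 such probe set, and they are 9 of the 19938 genes measured in that way. The series holds 15 mouse arrays in 4 groups. Metanephric mesenchyme (MM) gave 4 single cells, numbered 14, 15, 16 and 19, from embryonic day 11.5 (E11.5) kidneys that carried the Crym-GFP transgene Tg(Crym-EGFP)GF82Gsat, sex not known. The juxtaglomerular (JG) complex gave 5 single cells, numbered 4 to 8, taken next to glomeruli of adult males that carried a reporter driven by the renin gene, named Ren1c-YFP in the characteristics and Ren1d GFP in the dissection text. Adult male Ren1c-YFP cortex, freed of medulla and lysed as a mixture of cell types, was labelled in 2 ways with 3 libraries each, lettered A to C. Diluted cortex went through the single cell amplification, 32 rounds per the labels, as both kinds of cell did. Standard-labelled cortex went through a NuGEN kit with 1 round. Strain is unspecified for every array. Since the labels tie no cell to an animal, the cells of a group are counted as 1 sample and comparisons with cells carry no test.

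Interstitial matrix is laid down mainly by fibroblasts and their relatives between tubules and vessels. Small leucine-rich proteoglycans such as decorin (Dcn) and lumican (Lum) coat collagen fibrils and set their width and spacing, and decorin also binds TGF-beta. Microfibril-associated protein 2 (Mfap2) and the fibulins (Fbln1, Fbln5) belong to fibrillin microfibrils and elastic fibres, and fibulin 5 is required for elastic fibre assembly. Periostin (Postn) is a matricellular protein that modifies how cells attach to matrix, and dermatopontin (Dpt) binds decorin. Apolipoprotein D (Apod), a lipocalin that carries small lipids, and gelsolin (Gsn), which severs and caps actin filaments and also has a secreted form, are not fibre components but are commonly read together with matrix genes in fibroblasts.

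Signal was judged against a background class on the same array, 1205 olfactory and vomeronasal receptor probe sets, because kidney cells are not known to need these genes in number. A gene was called above background where it exceeded the 99th percentile of the receptors. On the log2 scale MM cells had this level between 7.13 and 7.56 and JG cells between 7.55 and 7.93. Diluted libraries had it between 6.18 and 6.30, and standard-labelled libraries between 6.30 and 6.52. Between 10.9% and 21.1% of all genes were above it in an MM cell and between 6.78% and 14.2% in a JG cell, against 48.3% to 50.5% in a diluted and 43.7% to 48.2% in a standard-labelled library. A gene of modest signal could thus be seen in cortex and not in a cell. Labels were checked against marker genes. Of 7 cap mesenchyme (nephron progenitor) markers, 3, 1, 3 and 3 were above background in MM cells 14, 15, 16 and 19, against 1, 2, 1, 0 and 4 in JG cells 4 to 8, so the list did not set the MM cells apart. Of these markers, Six2 lay 2.57 above background in MM cell 16 and 0.38 in MM cell 14, and in no JG cell. Cited1 was above it in 3 MM and 4 JG cells, by at most 0.55. Of 8 distal nephron and collecting duct markers, an MM cell had 2 to 3 above background and a JG cell 1 to 2. Aqp2 was above it in all 4 MM and all 5 JG cells, and Hsd11b2 in 4 MM and 3 JG cells. Of 7 proximal tubule markers, an MM cell had 0 to 1 above it and a JG cell 0 to 2. The reason was not tested, and a small margin above background is thus weak evidence of expression. Ren1 and Akr1b7, the renin cell markers chosen, had no probe set of their own here, so the JG label was not checked against them.

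Of the 9 genes, 6 were above background on at least 1 array, where 61.2% of all genes were. MM cells reached this for 5 (Fbln1, Fbln5, Mfap2, Postn and Gsn) in at least 1 cell, against a background of 30.7% of genes, and for 3 without MM cell 14. JG cells did so for 3 (Fbln1, Mfap2 and Gsn), with a background of 21.3%. Diluted cortex did so for 5 (Dcn, Fbln1, Fbln5, Mfap2 and Gsn), with a background of 52.4%, and standard-labelled cortex for 4 (Dcn, Fbln5, Mfap2 and Gsn), with a background of 50.2%. Counting only genes above background on every array of a group, MM cells had Mfap2 and Gsn (6.57% of genes), JG cells Mfap2 (3.39%), diluted cortex the same 5 (45.9%) and standard-labelled cortex the same 4 (42.7%). Lum, Dpt and Apod stayed below background on all 15 arrays. With the receptor 95th percentile as the level, 7 members were above it on at least 1 array (Dpt added, in standard-labelled library C). By group, 5 were above it in MM cells, 4 in JG cells (Fbln5 added), 5 in diluted cortex and 6 in standard-labelled cortex. The share of all genes above this lower level is not given, so these counts cannot be read as particular to the members. At that level Fbln1 was above it in 3 MM and 4 JG cells, Fbln5 in 4 MM and 3 JG cells, and Gsn in all 4 MM and all 5 JG cells, while Postn remained above it in MM cell 19 alone.

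**Figure D1:**
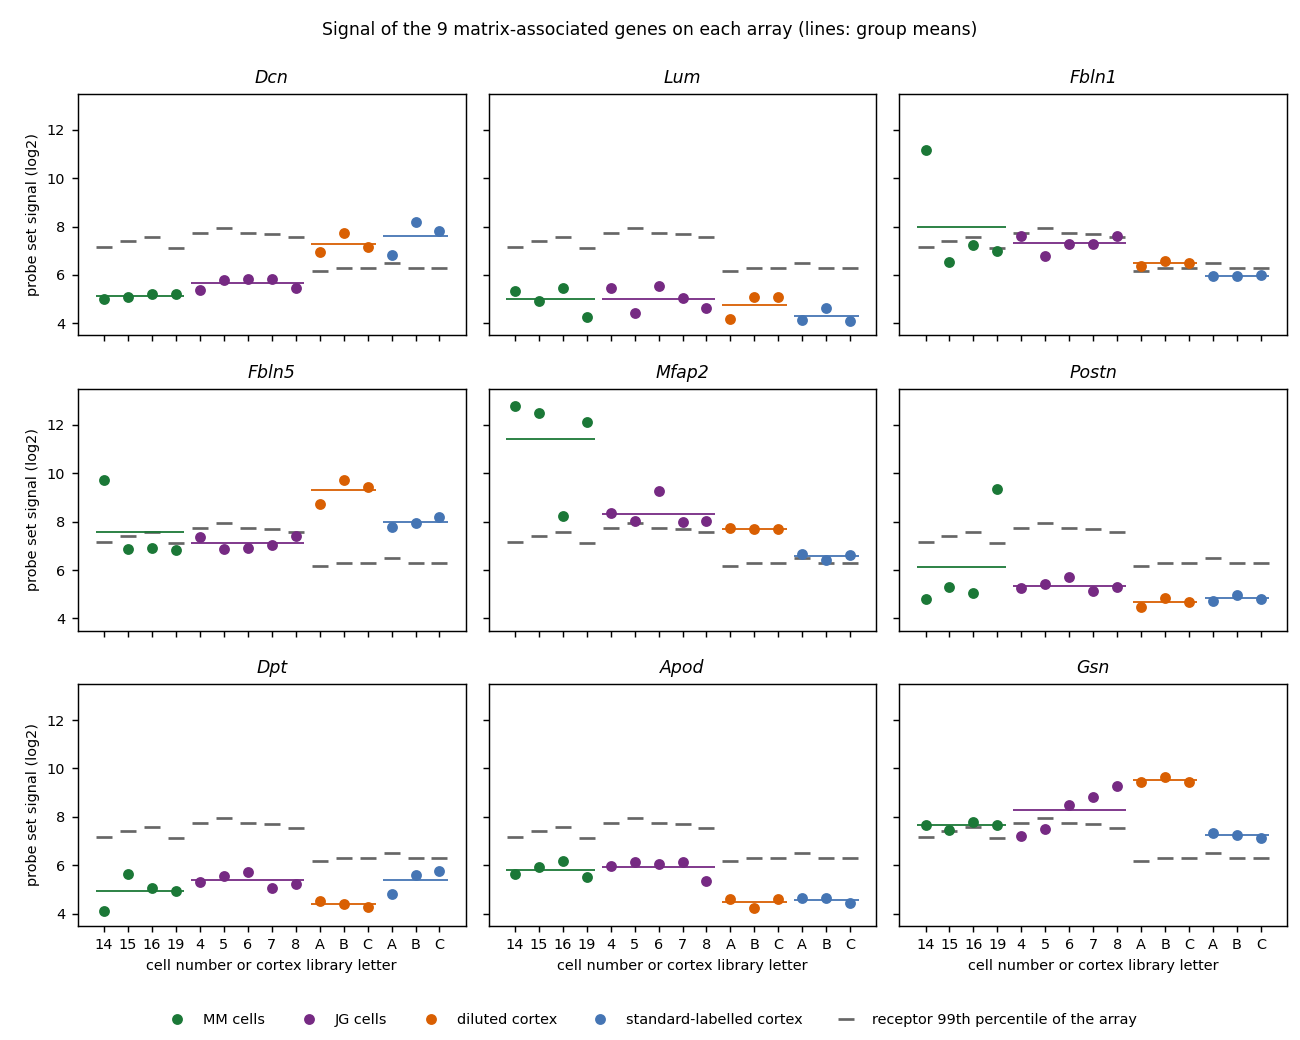
Log2 probe set signal of the 9 genes (panels) on the 15 arrays (points, x axis by cell number or library letter), with group means as lines and the receptor 99th percentile of each array as a grey dash. Mfap2 stands at 12.11 to 12.77 in 3 of the 4 MM cells, Fbln1 and Fbln5 stand out in MM cell 14 and Postn in MM cell 19, while Dcn is above the dash only in cortex.

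Fbln1, Fbln5, Mfap2 and Postn differed widely between single MM cells. For these 4 genes the promoter window of RefSeq (GRCm38.p6, 250 bases before to 50 after a transcription start, 5′ to 3′ on the gene's strand) is shown so that the regulatory letters can be read beside the pattern of the cells. Capitals mark the TATA box letters TATAAA and the GC box letters GGGCGG, searched on both strands, and the 2 motifs overlap nowhere. Each of these genes has 2 windows in the table. The window that holds a match is given, and the other window of each gene held neither motif.
Fbln1, chr15:85205758-85206057, plus strand: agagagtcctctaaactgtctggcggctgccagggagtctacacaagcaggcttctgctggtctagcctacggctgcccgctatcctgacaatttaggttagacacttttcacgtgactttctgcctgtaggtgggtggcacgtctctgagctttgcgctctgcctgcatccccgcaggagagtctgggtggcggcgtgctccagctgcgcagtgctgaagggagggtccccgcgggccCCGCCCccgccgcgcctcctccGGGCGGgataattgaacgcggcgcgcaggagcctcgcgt
Fbln5, chr12:101819070-101819369, minus strand: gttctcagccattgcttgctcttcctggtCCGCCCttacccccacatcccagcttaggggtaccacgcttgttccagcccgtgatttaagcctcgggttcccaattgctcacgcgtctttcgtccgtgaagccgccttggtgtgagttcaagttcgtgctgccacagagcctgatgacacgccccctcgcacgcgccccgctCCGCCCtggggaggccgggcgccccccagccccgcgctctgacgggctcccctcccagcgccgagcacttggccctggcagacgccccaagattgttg
Mfap2, chr4:141010431-141010730, plus strand: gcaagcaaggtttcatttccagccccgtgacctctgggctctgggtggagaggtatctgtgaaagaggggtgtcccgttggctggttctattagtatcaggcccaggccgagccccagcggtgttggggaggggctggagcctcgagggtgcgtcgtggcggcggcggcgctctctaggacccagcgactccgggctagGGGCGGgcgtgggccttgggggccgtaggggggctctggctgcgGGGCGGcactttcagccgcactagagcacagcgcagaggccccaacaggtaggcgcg
Postn, chr3:54360857-54361156, plus strand: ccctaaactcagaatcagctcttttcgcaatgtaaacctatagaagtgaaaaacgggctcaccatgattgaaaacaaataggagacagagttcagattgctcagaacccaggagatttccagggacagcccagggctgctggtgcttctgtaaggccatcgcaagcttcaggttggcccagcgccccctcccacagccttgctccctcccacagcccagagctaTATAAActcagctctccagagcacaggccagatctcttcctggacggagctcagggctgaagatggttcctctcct
GGGCGG occurred on either strand in these windows of Fbln1, Fbln5 and Mfap2, 2 times in each, and in 35.7% of all 32851 windows of this length. TATAAA occurred in the window of Postn, 1 time, and in 13.6% of all windows. The windows shown were chosen for holding a match, so these shares do not tell whether the motifs are unusual in these genes. Of the other members, the single window of Dpt held TATAAA 1 time, the 3 windows of Gsn held GGGCGG 3, 1 and 2 times, and the window of Apod held neither. Dcn and Lum had no entry.

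The microfibril gene Mfap2 was the member with the largest MM signal relative to background. It measured 12.77, 12.51, 8.22 and 12.11 in MM cells 14, 15, 16 and 19, against 8.35, 8.03, 9.28, 7.98 and 8.02 in JG cells 4 to 8. MM cells 14, 15 and 19 lay far above every JG cell, while MM cell 16 lay below JG cell 6, so the groups overlapped. The difference of means was 3.07 (11.40 ± 2.14 over 4 MM cells and 8.33 ± 0.55 over 5 JG cells, mean ± SD). Receptors differed by -0.21 between the same groups, and beyond that shift Mfap2 was 3.28 higher in MM cells. It was the only member at least 1 log2 unit from the shift in this comparison, where 10.8% of all genes were that much higher and 0.732% that much lower. This count rests on single cells. Leaving out MM cell 15, MM cell 16 or JG cell 8 gave 3 such members, and leaving out MM cell 14, MM cell 19 or JG cell 6 gave 2. The shares of all genes without these cells are not given.

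Cortex held Mfap2 at lower signal. Diluted cortex measured 7.72, 7.71 and 7.70 in libraries A, B and C, and standard-labelled cortex 6.66, 6.44 and 6.63. All 4 MM cells exceeded all 3 diluted libraries, with a difference of 3.69, or 2.88 beyond a receptor shift of 0.81. Mfap2 was the only member at least 1 log2 unit higher beyond the shift, where 0.787% of all genes were, and its difference exceeded that of 99.9% of genes. Without MM cell 16 there were 3 such members, with Fbln1 at 1.01 and Postn at 1.09, and without MM cell 14 or MM cell 15 there were 2. The shares of all genes without these cells are not given. In Mfap2, JG cells exceeded diluted cortex by 0.62, which is 0.40 below the receptor shift of 1.02. With quantile normalization over the 15 arrays that value was 1.80 above the shift, and against standard-labelled cortex 0.77 above it, so the direction in JG cells was not settled. Means thus ran from MM through JG cells and diluted to standard-labelled cortex, and only the MM and JG ranges overlapped.

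The fibulins shared their outlying cell. Fbln1, a fibulin of elastic fibres and basement membranes, measured 11.18, 6.55, 7.24 and 6.97 in MM cells 14, 15, 16 and 19. It measured 7.59, 6.78, 7.29, 7.28 and 7.63 in JG cells 4 to 8. Only MM cell 14 was far above its background level, by 4.03, and JG cell 8 was 0.07 above it. Fbln1 was the only member above background in exactly 1 JG cell, where 8.86% of genes were, but JG cells 4, 6 and 7 were also above the receptor 95th percentile. Fbln1 averaged 7.98 ± 2.15 in MM cells (SD over 4 cells) and 6.48 ± 0.10 in diluted cortex (SD, n = 3). The difference beyond the shift was 0.69 with all 4 cells and -0.44 without MM cell 14. In cortex the gene was near background, at 6.36, 6.57 and 6.51 in diluted libraries A to C, and below it at 5.96, 5.96 and 6.0 in standard-labelled libraries.

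Fbln5 measured 9.74, 6.87, 6.91 and 6.81 in MM cells 14, 15, 16 and 19. It measured 7.38, 6.86, 6.93, 7.06 and 7.43 in JG cells 4 to 8, 8.72, 9.74 and 9.43 in diluted cortex and 7.79, 7.95 and 8.19 in standard-labelled cortex. MM cell 14 was 2.59 above background and reached the level of diluted cortex library B, while the other 3 MM cells and all 5 JG cells were below it. At the receptor 95th percentile those 3 MM cells and JG cells 4, 7 and 8 were above the level. JG cells lay below every diluted library, with a difference of -2.16, or -3.19 beyond the shift. Beyond the shift it was -1.33 with quantile normalization and -1.83 against standard-labelled cortex. Since no JG cell was above the 99th percentile, the difference is a bound. Taking the receptor 99th percentile as the level of each JG cell, Fbln5 was at least 2.96-fold lower there than in diluted cortex. This bound holds for the deposited scale and the diluted libraries only. The MM mean differed from diluted cortex by -1.71, or -2.53 beyond the shift, and by -3.31 beyond it without MM cell 14. For MM cells the value beyond the shift was -1.03 with quantile normalization and -1.18 against standard-labelled cortex. By means the order was diluted cortex, standard-labelled cortex, MM and JG cells. The MM range, which MM cell 14 widens, overlapped that of every other group, and no other pair of groups overlapped.

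Postn was above background on 1 array of 15. It measured 4.80, 5.32, 5.06 and 9.34 in MM cells 14, 15, 16 and 19, and 5.27, 5.41, 5.70, 5.13 and 5.29 in JG cells 4 to 8. Diluted cortex gave 4.47, 4.86 and 4.67, and standard-labelled cortex 4.72, 4.98 and 4.81. MM cell 19 stood 2.21 above its background level and the highest value on any other array was 5.70, in JG cell 6. Being above background in exactly 1 MM cell was common, at 11.7% of all genes, and Fbln1, Fbln5 and Postn were the members that shared it.

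Other matrix and stroma genes were read in the same cells. Of 38 measured genes from 3 lists of related proteins (small leucine-rich proteoglycans, fibulins and elastic fibre proteins, and matricellular proteins), 5, 4, 2 and 7 were above background in MM cells 14, 15, 16 and 19, or 13.2%, 10.5%, 5.26% and 18.4%. All genes reached 20.6%, 15.8%, 10.9% and 21.1% in these cells, so in each MM cell the share of matrix genes was below that of all genes. In MM cell 19, which held Postn, Efemp1 (fibulin 3) measured 11.66, the collagen-binding glycoprotein Sparc 11.31, the proteoglycan fibromodulin (Fmod) 9.24 and the elastic fibre protein Emilin1 9.05. The other 3 MM cells held Efemp1 at 5.32 to 5.50, Sparc at 6.66 to 7.26 and Fmod at 5.53 to 6.14, all below background. In MM cell 14, which held both fibulins, Emilin1 measured 8.66, and Efemp1, Sparc and Fmod were below background.

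Markers of kidney stroma progenitors were read in the same arrays. Of the 4 measured (Foxd1, Meis1, Meis2 and Aldh1a2), 3, 2, 0 and 3 were above background in MM cells 14, 15, 16 and 19, none in any JG cell, 3 in each diluted library and 2 in each standard-labelled library. Their log2 signals summed to between 26.2 and 36.2 per MM cell and 25.0 and 26.7 per JG cell. The sum was between 25.6 and 26.6 per diluted library and 26.4 and 26.8 per standard-labelled library. Foxd1, the transcription factor that defines these progenitors, measured 11.33 in MM cell 19 and 9.03 in MM cell 14, against 6.60 and 6.35 in MM cells 15 and 16. The other stroma markers counted in MM cell 14 (Aldh1a2 and Meis1) were within 0.26 of background. Meis2 measured 10.97 in MM cell 19 and Meis1 was 3.60 above background in MM cell 15. Of 9 fibroblast markers measured, 4 were above background in each MM cell, the same 4 each time (Col1a1, Col1a2, Col3a1 and Gli1). Col1a1, Col1a2 and Col3a1 were also above it in all 5 JG cells and Gli1 in 3, so these counts did not set MM cells apart. MM cell 19 held Col3a1 at 10.62 and Col1a1 at 10.08, and the other 3 held them at 7.22 to 7.60 and 7.50 to 8.21. MM cell 16, lowest of the MM cells in Mfap2, had none of the 4 stroma markers above background, while MM cell 15, with Mfap2 at 12.51, had Meis1 and Meis2 but not Foxd1. MM cell 14 also held the endothelial sialomucin Emcn at 11.77, while the other 4 endothelial markers (Pecam1, Cdh5, Kdr and Tek) were below background in it. MM cell 16 also had the fewest genes above background among the MM cells, at 10.9%. MM cells 14 and 19 had the most, at 20.6% and 21.1%. The part of detection and of the makeup of these cells in the fibulin, Postn, Mfap2 and marker values was not tested.

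**Figure D2:**
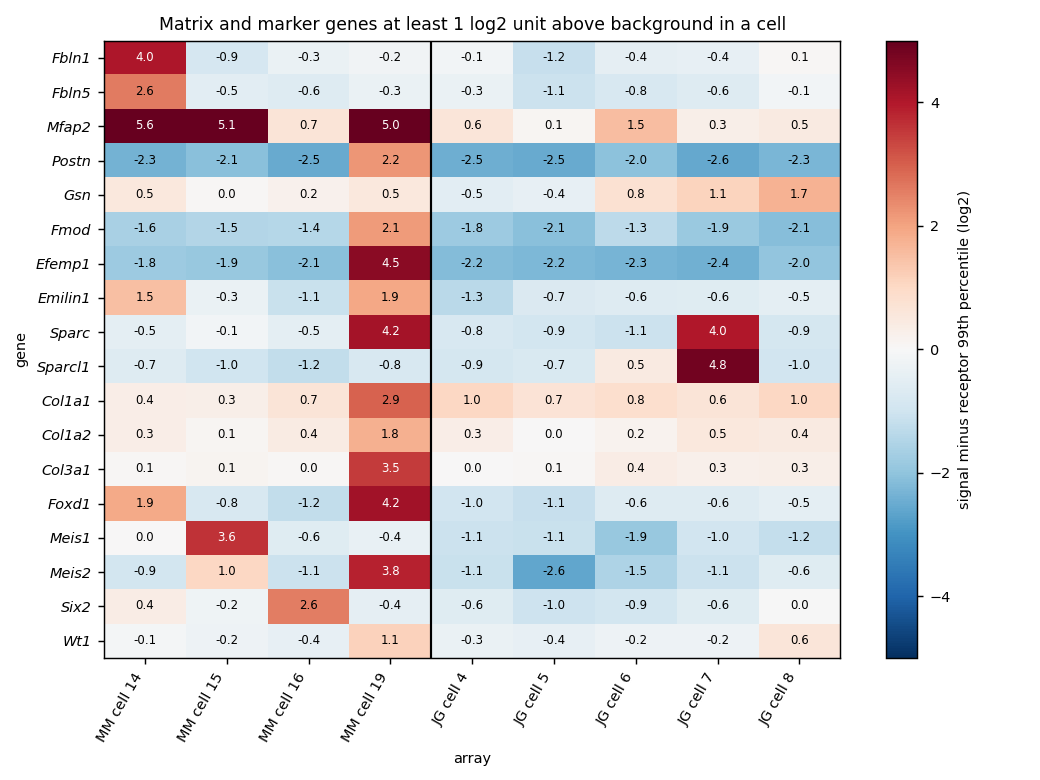
Signal minus the receptor 99th percentile of the same array (colour and printed value, log2) for members, genes of the 3 related matrix lists, and fibroblast, stroma and nephron progenitor markers at least 1 log2 unit above it in a cell (rows), in the 4 MM and 5 JG cells (columns). Postn, Efemp1, Fmod, Sparc and Foxd1 are high in MM cell 19, Fbln1, Fbln5 and Foxd1 in MM cell 14, and Six2 in MM cell 16.

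In JG cells only Mfap2 and Gsn among the members were more than 0.1 above background. Mfap2 exceeded its background level by 0.10 to 1.54 in all 5 cells, the most in JG cell 6. Gelsolin (Gsn) measured 7.19, 7.51, 8.51, 8.82 and 9.29 in JG cells 4 to 8, against 9.42, 9.64 and 9.45 in diluted cortex. JG cells 4 and 5 were below background, and JG cells 6, 7 and 8 were 0.77, 1.12 and 1.74 above it. JG cells 4 and 5 also had the fewest genes above background among the 9 cells of both kinds, at 9.06% and 6.78%. At the receptor 95th percentile both were above the level for Gsn. Of 5 smooth muscle markers, 0, 0, 0, 1 and 2 were above background in JG cells 4 to 8, with summed log2 signals of 32.9 to 42.7. Acta2 was at 12.20 and 11.32 in JG cells 7 and 8, the highest in Gsn, and Des was above background in JG cell 8, while Myh11, Tagln and Cnn1 were below it in all 5. The part of low detection and of Acta2 in the Gsn values was not tested. The mean difference of JG cells from diluted cortex was -1.24, or -2.27 beyond the shift. It was 0.22 beyond the shift with quantile normalization and 0.037 against standard-labelled cortex, so its direction depended on the scaling and on the cortex used.

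MM cells held Gsn near background, at 7.67, 7.45, 7.77 and 7.68 in cells 14, 15, 16 and 19, which is 0.05 to 0.55 above it. They differed from diluted cortex by -1.86 (-2.68 beyond the shift, or -0.65 with quantile normalization) and from JG cells by -0.62, and the JG range held all 4 MM values. Of 11 matricellular genes, 0 to 3 were above background in a JG cell. Sparcl1 measured 12.51 and Sparc 11.70 in JG cell 7, and Sparcl1 was also above background in JG cell 6, at 8.19. Sparc was at 6.66 to 7.02 in JG cells 4, 5, 6 and 8, below background. Capg, a capping protein of the gelsolin family, measured 11.34 in JG cell 6, and the remaining JG cells had 5.89 to 6.56. Of the 38 related matrix genes, 5, 1, 3, 6 and 3 were above background in JG cells 4 to 8. Their share was above that of all genes in JG cell 4 (13.2% against 9.06%) and JG cell 7 (15.8% against 10.7%), and below it in the remaining JG cells.

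**Figure D3:**
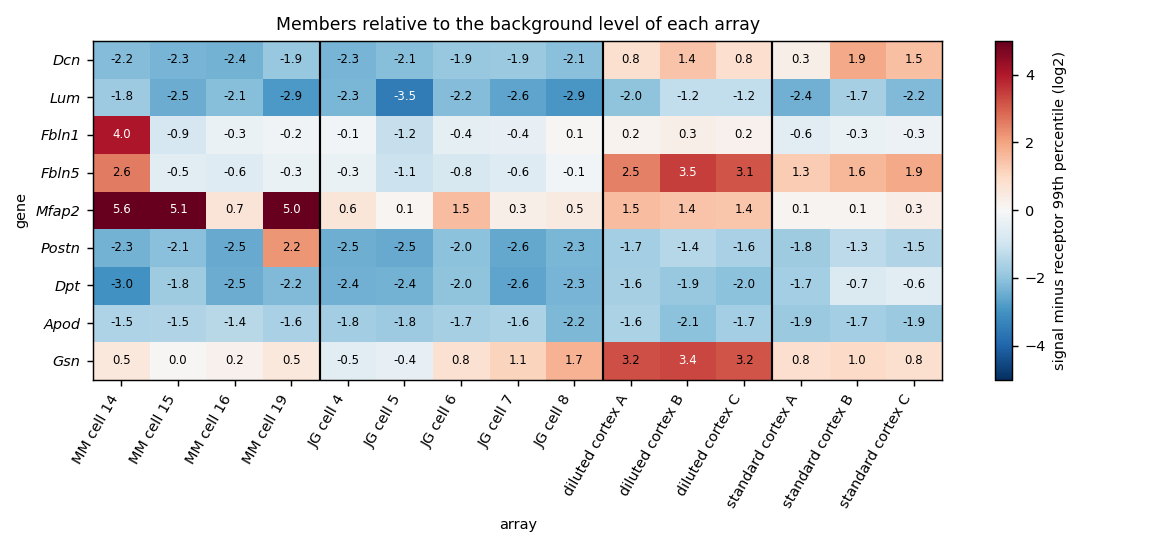
Signal minus the receptor 99th percentile of the same array (colour and printed value, log2) for the 9 genes (rows) on 15 arrays (columns, with lines between the 4 groups). Lum, Dpt and Apod are below 0 on every array, and Dcn is above 0 on the 6 cortex arrays only.

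Decorin was above background in cortex alone in these data. Dcn measured 5.00, 5.08, 5.21 and 5.23 in MM cells 14, 15, 16 and 19, and 5.39, 5.80, 5.83, 5.83 and 5.46 in JG cells 4 to 8. Diluted cortex gave 6.97, 7.73 and 7.15 in libraries A, B and C, and standard-labelled cortex 6.81, 8.18 and 7.82. All 9 cells were below every cortex library, with differences from diluted cortex of -1.62 for JG cells and -2.15 for MM cells. Both are set against background signal. The mean receptor 99th percentile of JG cells, 7.73, and of MM cells, 7.31, was above the mean of diluted cortex, 7.28, so Dcn at the level of cortex would not have been told from background in most cells and no fold is given. Fewer cells of a type and less RNA per cell cannot be told apart in cortex lysates. The 2 cortex groups overlapped, and MM cells lay below JG cells without overlap, as 6.86% of genes did, though both were within background. No member was higher in MM than in JG cells without overlap, where 1.13% of genes were.

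In the JG comparison, Dcn, Fbln5 and Gsn were the 3 members at least 1 log2 unit lower than diluted cortex beyond the shift, where 40.8% of all genes were, and no member was that much higher (0.587% of genes were). In the MM comparison Dcn, Fbln5 and Gsn were again lower, where 36.9% of genes were. Without overlap between groups, Dcn, Fbln5 and Gsn were lower in JG cells, where 29.3% of genes were, and Dcn and Gsn in MM cells, where 24% were. Both comparisons use the same 3 diluted libraries. The median difference beyond the shift over the 9 members was -0.40 for JG cells and -0.28 for MM cells, beside -0.46 and -0.40 over all genes, so the medians of members and of all genes lay close together.

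The members Lum, Dpt and Apod gave no signal above background. Lumican lay between 4.25 and 5.45 among MM cells (median 5.14), 4.43 and 5.55 among JG cells (median 5.06), 4.17 and 5.08 among diluted libraries, and 4.08 and 4.64 among standard-labelled ones. Every neighbouring pair of groups overlapped. Dermatopontin lay between 4.12 and 5.61 among MM cells and 5.06 and 5.72 among JG cells, with diluted libraries between 4.25 and 4.53 and standard-labelled ones between 4.82 and 5.74. Apod lay between 5.53 and 6.19 among MM cells and 5.32 and 6.13 among JG cells, with diluted libraries between 4.22 and 4.60 and standard-labelled ones between 4.45 and 4.65. All cells exceeded all cortex libraries in Apod, by means of 1.46 for JG and 1.34 for MM cells over diluted cortex. Receptors differed by 1.02 and 0.81 in the same comparisons. Groups that do not overlap in this direction were common, at 49.8% of all genes for JG cells and 47% for MM cells. Among members, Fbln1, Mfap2, Postn, Dpt and Apod were in that position for JG cells, and Mfap2 and Apod for MM cells.

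Diluted and standard-labelled cortex hold the same kind of tissue and differ in how RNA was amplified and labelled. Among members, Gsn, Fbln5, Mfap2 and Fbln1 were higher in diluted cortex and Dcn did not pass the threshold. Probe sets were tested from a level of 6.11 upward, taking for each the larger of its 2 group means and for the level the median of these over all probe sets. Dcn, Fbln1, Fbln5, Mfap2 and Gsn did so, and Lum, Postn, Dpt and Apod, below background in both groups, did not. By limma with Benjamini-Hochberg adjustment over 17779 probe sets, 4 of the 5 passed an adjusted p of 0.05, all higher in diluted cortex. Fbln1 reached the level of 6.11 through diluted cortex alone (mean 6.48, against 5.97 in standard-labelled cortex). Its place among the 4 is therefore not independent of the filter. The background was 78.3% of tested probe sets called, with 40.9% of the tested ones higher in diluted cortex and 37.4% lower, so being called was the usual outcome here. The 3 libraries of a group are not said to come from separate animals, so p-values reflect the spread among these libraries alone, and that spread may be technical.

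Gsn averaged 9.50 ± 0.12 in diluted cortex and 7.24 ± 0.12 in standard-labelled cortex (SD, n = 3 each), where its values were 7.34, 7.27 and 7.11 in libraries A to C. The difference was 2.27 ± 0.10 (SE), or 4.81-fold, with a limma adjusted p of 4.05e-07. Fbln5 differed by 1.32 ± 0.25, or 2.49-fold (adjusted p = 0.00140), and Mfap2 by 1.14 ± 0.09, or 2.20-fold (adjusted p = 9.22e-06). In all 3 genes, and in Fbln1, every diluted library exceeded every standard-labelled one, as 24.6% of all probe sets did. Dpt, below background, was the only member with the opposite order, which 35% of probe sets had. Fbln1 differed by 0.51 ± 0.09 (limma adjusted p = 0.000887). No standard-labelled library was above background for Fbln1, so the difference is a bound. With the mean receptor 99th percentile of these libraries, 6.38, as their level, the diluted mean was at least 1.08-fold higher on the deposited scale. The bound holds for means only, since diluted library A, at 6.36, was below that level. Dcn differed by -0.32 ± 0.35 (limma adjusted p = 0.415), less than the spread among libraries. Without standard-labelled library A, the lowest of its group, the difference of Dcn was -0.72 (limma adjusted p = 0.0306).

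**Figure D4:**
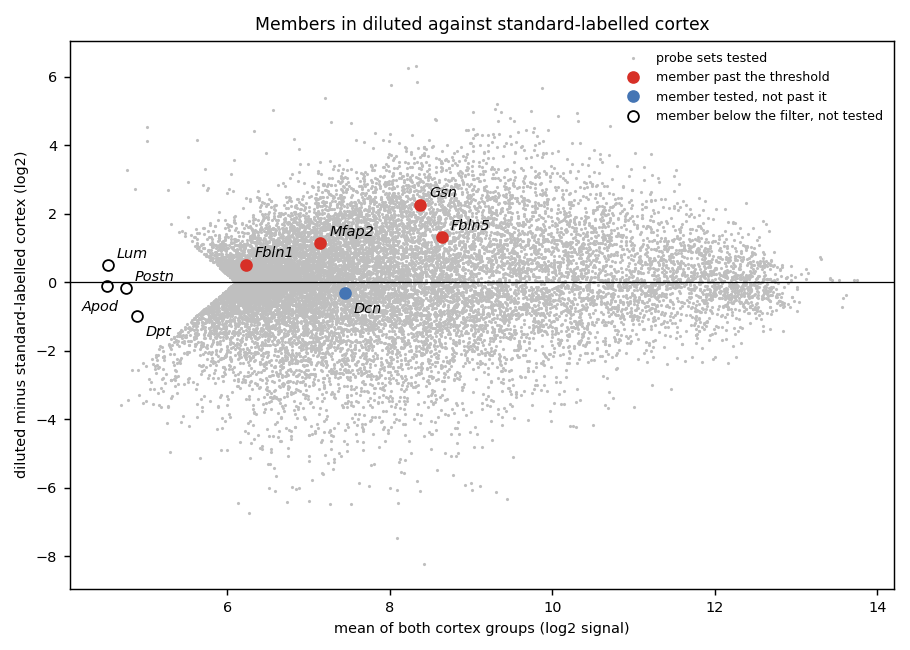
Log2 difference of diluted minus standard-labelled cortex (y axis) against the mean of both groups (x axis, log2 signal) for the 17779 probe sets tested (grey) and the 9 members (red past the threshold, blue tested but not past it, open not tested). Gsn (2.27), Fbln5 (1.32), Mfap2 (1.14) and Fbln1 (0.51) lie above 0 and Dcn (-0.32) just below, all within the spread of other probe sets.

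Related genes changed in both directions between the cortex groups. Among fibulins and elastic fibre genes, 7 of the 10 tested were higher in diluted cortex and 2 lower, with a median of 0.46, beside 0.04 over all probe sets tested. Fbln7 was higher by 1.75, the crosslinking enzyme gene Loxl1 by 1.33, Fbln2 by 0.89 and Emilin1 by 0.66, while Efemp1 differed by 0.11 (limma adjusted p = 0.263). Among small leucine-rich proteoglycans, 2 of the 6 tested were higher and 1 lower. Fmod was higher by 1.07, the fibril protein asporin (Aspn) differed by -1.83, and biglycan (Bgn), the closest relative of decorin, differed by 0.08 (limma adjusted p = 0.605). Matricellular genes gave 1 higher and 3 lower of 7 tested, with thrombospondin 1 (Thbs1) at -0.68. Fbln7, Loxl1, Fbln2, Emilin1 and Fmod reached the filter level only through diluted cortex, and Aspn only through standard-labelled cortex. The filter thus shaped the counts of higher and lower genes and the median of 0.46.

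Partners of these proteins were measured too. Of 5 tested receptor genes, 1 was higher and 4 lower in diluted cortex, with a median of -1.43. Met, which encodes a kinase that decorin binds, differed by -3.51, the integrin subunit gene Itgav by -2.54 and Itgb1 by -1.43, while Itgb5 was higher by 1.70. TGF-beta pathway genes gave 0 higher and 6 lower of 7 tested, with a median of -0.77. Laminins, nidogens and fibronectin gave 4 higher and 7 lower of 12. In the gelsolin family, Capg (2.34) and villin (Vil1, 1.07) were higher, as Gsn was, while scinderin (Scin, -1.67) and supervillin (Svil, -1.21) were lower, and Flii was higher by 0.30. All 3 lipocalins tested were higher, namely Lcn2 by 2.87, Ptgds by 1.85 and Apom by 1.83. Of 8 fibroblast markers tested, 4 were higher and 2 lower, with Col1a2 at 0.72, Pdgfra at -0.80 and Tcf21 at -1.04. Here too some genes reached the filter level through the higher group alone. Lcn2 did so in diluted cortex, and Svil, Pdgfra, Tcf21, Tgfbr1 and Fn1 in standard-labelled cortex.

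Genes with the most similar pattern were taken by the root mean square (RMS) distance over the 15 arrays, each gene centred on its own mean, for the 5 members above background on at least 3 arrays and among 10924 other such genes. The nearest to Dcn was osteoglycin (Ogn), another small leucine-rich proteoglycan, at 0.26 log2 units, followed by Fmo4 (0.29) and Cog6 (0.30), where the values of Dcn itself had an RMS spread of 1.06. Ogn averaged 5.10 in MM cells, 5.23 in JG cells, 6.73 in diluted and 7.04 in standard-labelled cortex. The nearest to Mfap2 were the transcription factor gene Tead2 (0.55), the Wnt receptor gene Fzd2 (0.56) and the actin bundling gene Fscn1 (0.59), with MM means of 10.39, 9.98 and 10.93. The nearest to Fbln1 were Cox4i2 (0.30), Ccne1 (0.32) and Fbrs (0.33). Fbln1 itself had an RMS spread of 1.23, with 11.18 in MM cell 14 and at most 7.63 on any other array. Its likeness thus leans on 1 array. The nearest to Fbln5 were Tmed9 (0.32), Rabepk (0.35) and Mettl21a (0.35), and to Gsn Dhrs13 (0.31), Tmem161a (0.35) and Psen2 (0.35). The arrays share amplification and background within a group, and the part of these in the likeness was not tested.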

How the data were processed

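A biotin-labelled mouse gene array was run per sample. The deposited table holds log2 signals of 35557 probe sets, from 2.22 to 13.98 with none missing, and the log2 scale was read from the values. Per the submitters' processing notes the software was Affymetrix Expression Console. Its version and its summary and normalization settings are not stated in the labels or files, and signals were used as deposited. Precision is limited by the number of arrays. Of the probe sets, 21789 had 1 gene symbol in the platform annotation, 1621 had several and 12147 were unlisted. All 9 members matched RefSeq by gene ID. For a gene with several probe sets the brightest over 15 arrays was used. The members and lists were chosen with earlier results of these data known. Genes named were the members, the 3 nearest to each by RMS distance, and, from each list, up to 4 with the largest differences or those above background in a cell; Ogn, Acta2 Bgn and some marker genes were named after their values were seen. The lists hold 148 genes, of which 135 could be read. Cells were compared by differences of group means, also after subtracting the median difference of the receptors (the receptor shift). Cortex groups were compared with limma 3.58.1 (lmFit, eBayes) in R 4.3.3, tested on simulated data. The rest was computed in Python 3.11.15 with numpy 2.4.6 and pandas 2.3.3. Alternatives changed the probe set rule, scaling, filter, prior, block, background percentile, summary, cortex used and the arrays left out.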

Additional observations from a re-analysis of the deposited data

Results flagged for a closer look

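In 18 groups of cells (9 genes in MM and in JG cells), 6 held a cell far from the others by Dixon's 95% criterion. The share of all genes flagged in this way is not given, so the count cannot be read as particular to the members. The criterion only marks cells for a closer look, since the cells of a group count as 1 sample. Flagged were Fbln1 (11.18) and Fbln5 (9.74) in MM cell 14, and Postn (9.34) in MM cell 19. Mfap2 was flagged as the lowest value in MM cell 16 (8.22) and the highest in JG cell 6 (9.28), and Apod as the lowest in JG cell 8 (5.32). The Apod value lies below background, as all other Apod values do. For Mfap2 in JG cell 6 the gap over the range was 0.714, close to the critical value.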

How the results depend on the processing

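Of 387 alternative values for members in cells, 27 changed sign, 25 of them where the value beyond the shift was under 1 log2 unit. Mfap2 in JG cells minus diluted cortex, -0.40, became 1.80 with quantile normalization, 0.62 without the shift and 0.77 against standard-labelled cortex, and Fbln1, -0.19, became 0.87, 0.83 and 0.36. The other 2 were Gsn in JG cells minus diluted cortex, at 0.22 with quantile normalization and 0.037 against standard-labelled cortex, beside -2.27, and the cause was not tested. Without taking off the receptor shift, 7 members lay at least 1 log2 unit from diluted cortex in MM cells, beside 4. The added members were Fbln1, Postn and Apod. Single cells raise the MM means of Fbln1 (MM cell 14) and Postn (MM cell 19), and the part of background in the count was not tested. The share of all genes in this setting is not given, so the count cannot be read as particular to the members. Without JG cells 4 and 5, chosen after seeing the data, 2 members differed by at least 1 log2 unit beyond the shift between MM and JG cells, beside 1. Leaving out single arrays gave 1 to 3 members for MM minus JG cells, 4 to 6 for MM cells minus diluted cortex, 3 to 4 for JG cells minus diluted cortex, and 3 to 5 above background in MM cells, 2 to 3 in JG cells and 5 to 6 on any array. The shares of all genes with these cells or arrays left out are not given either, so changes in these counts cannot be read as particular to the members. In cortex, leaving out single arrays gave 4 to 5 members called and 12956 to 13707 probe sets called, beside 13916. Averaging all probe sets of a gene gave 8489 called, with fewer features tested, and 3 members, since Fbln1 fell below the higher filter level of 6.56. With no filter 5 members were called, Dpt being the added one, lower in diluted cortex. The letters A to C were not taken to pair the libraries, since same-letter deviations correlated at 0.171, 0.175 and 0.043. With a replicate block on the letters, 13999 probe sets and 4 members were called. Each library correlated best with its own letter, a hint from the data only. For diluted library C the values were nearly equal, at 0.0428 with standard-labelled C and 0.0423 with standard-labelled B. Background signal limits what cells can show: a gene below about 7.13 to 7.93 could not be seen in them.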

Other observations

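Cortex libraries of the same letter ranked alike in Dcn under both labellings. Library A was lowest and B highest in diluted cortex (6.97, 7.73 and 7.15 in A, B and C) and in standard-labelled cortex (6.81, 8.18 and 7.82). Ogn ran the same way, at 6.43, 6.92 and 6.85 in diluted and 6.32, 7.50 and 7.30 in standard-labelled libraries, and so did the smooth muscle actin gene Acta2, at 8.13, 9.89 and 9.28 in diluted and 6.80, 8.91 and 8.40 in standard-labelled libraries. Mfap2 and Gsn did not follow this order. These genes were picked after their values were seen, and whether libraries of 1 letter share a lysate is not stated.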
